A study of Mus musculus with 6 samples.

Results

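Genes of the unfolded protein response and of protein folding in the endoplasmic reticulum (ER) were examined in alveolar type II (AT2) cells of the mouse lung, which secrete surfactant. The 44 genes were taken from a list of ER stress sensors, their target genes, chaperones, translocon subunits and ER-associated degradation genes, and all 44 were found among the 23337 gene symbols in the count files. The 3 mutant libraries came from SpC-CreER/Dlk1flox/ROSA-Tomato mice and the 3 wild-type libraries from SpC-CreER/ROSA-Tomato mice. Both groups thus carried the inducible Cre driven by the surfactant protein C promoter and the Tomato reporter, and only the mutant mice carried the floxed Dlk1, a gene for a Delta-like membrane protein of the Notch pathway. All 6 libraries were labelled as Tomato-positive type II cells sorted 10 days after lung injury with Pseudomonas aeruginosa, and one protocol also mentions 8 days of culture. The ages of the mice, and whether each library came from its own mouse, are details the labels do not give, so p-values measure the spread between these libraries.

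Proteins that enter the secretory pathway are threaded through the Sec61 translocon into the ER, folded by chaperones and disulfide isomerases, and passed on in COPII-coated vesicles or, if misfolded, pulled back to the cytosol for degradation. Unfolded protein in the ER is sensed by the membrane proteins IRE1 (Ern1), PERK (Eif2ak3) and ATF6, which act through the transcription factors XBP1, ATF4 and the cleaved form of ATF6 itself. AT2 cells secrete large amounts of surfactant protein, and misfolding mutants of surfactant protein C are known to stress their ER.

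Many of these genes are known to be driven through short promoter elements, which were searched on both strands of the RefSeq promoter windows on GRCm38.p6, from 250 bases before to 50 bases after each start. Of the 44 genes, 36 had a window. The ER stress response element (ERSE), spelled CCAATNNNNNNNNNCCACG, is bound by ATF6 together with the CCAAT-binding factor NF-Y. It occurred in the windows of 9 of the 36 genes (25%), against 0.137% of all 27025 genes with a window. The related ERSE-II, ATTGGNCCACG, occurred in Herpud1 and Dnajb11, 2 of 36 (5.56%, against 0.0444% of all genes). The element read by ATF4 with C/EBP proteins, searched as TGATGNAA, occurred in Trib3, Chac1, Asns and Herpud1, 4 of 36 (11.1%, against 4.51%). The UPRE core TGACGTGG, a site of XBP1 and ATF6, occurred in Sec24d alone (2.78%, against 0.714%). No match of one motif overlapped a match of another in these genes. The 44 genes were listed as parts and targets of this response, so these shares describe the list and test nothing about it. A match describes letters in the window and does not show binding in these cells.

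The 9 genes with an ERSE are shown because this was the element found in the largest number of these promoters. They encode the chaperones Hspa5 and Hsp90b1, the co-chaperone Dnajc3, the disulfide isomerase Pdia6 and the isomerase-like Creld2. The others encode the lectin chaperones Canx and Calr and the degradation components Syvn1 and Derl3. Each stretch lies upstream of the start and is written 5′ to 3′ on the strand of its gene, with coordinates on GRCm38.p6. Capitals mark CCAAT and CCACG, or ATTGG and CGTGG where the element runs on the opposite strand.
Hspa5 (chr2:34771970-34772069, plus strand): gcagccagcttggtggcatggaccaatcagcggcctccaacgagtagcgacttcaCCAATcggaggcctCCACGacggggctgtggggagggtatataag
Hsp90b1 (chr10:86705523-86705666, minus strand): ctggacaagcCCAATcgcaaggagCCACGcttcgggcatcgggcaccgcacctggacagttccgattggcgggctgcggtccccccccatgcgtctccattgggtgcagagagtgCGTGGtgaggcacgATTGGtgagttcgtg
Dnajc3 (chr14:118937807-118937865, plus strand): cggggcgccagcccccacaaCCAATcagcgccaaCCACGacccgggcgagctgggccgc
Pdia6 (chr12:17266471-17266529, plus strand): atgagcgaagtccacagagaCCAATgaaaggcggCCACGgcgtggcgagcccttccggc
Creld2 (chr15:88819500-88819558, plus strand): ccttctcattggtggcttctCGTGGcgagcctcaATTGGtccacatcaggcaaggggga
Canx (chr11:50325780-50325838, minus strand): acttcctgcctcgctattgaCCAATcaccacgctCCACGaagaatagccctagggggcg
Calr (chr8:84847055-84847113, minus strand): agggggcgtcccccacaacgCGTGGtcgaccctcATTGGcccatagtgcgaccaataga
Syvn1 (chr19:6046512-6046570, plus strand): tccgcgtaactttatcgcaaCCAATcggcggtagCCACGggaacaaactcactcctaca
Derl3 (chr10:75893222-75893280, plus strand): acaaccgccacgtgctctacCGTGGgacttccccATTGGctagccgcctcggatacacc
Counting exact matches only, Hsp90b1 held the element 2 times, once on each strand, and the other 8 genes held it once. Copies with other letters in CCAAT or CCACG were not searched. In Herpud1 the ERSE-II stood downstream of an ATF4 element, and in Asns and Chac1 the ATF4 element stood alone. These 3 are shown for the contrast with the chaperone promoters, with the fixed letters of each match in capitals.
Herpud1 (chr8:94386307-94386397, plus strand): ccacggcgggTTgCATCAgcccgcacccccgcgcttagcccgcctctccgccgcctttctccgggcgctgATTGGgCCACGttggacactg
Asns (chr6:7693210-7693262, minus strand): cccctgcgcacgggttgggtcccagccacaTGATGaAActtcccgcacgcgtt
Chac1 (chr2:119351029-119351076, plus strand): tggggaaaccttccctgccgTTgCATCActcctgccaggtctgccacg

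**Figure D1:**
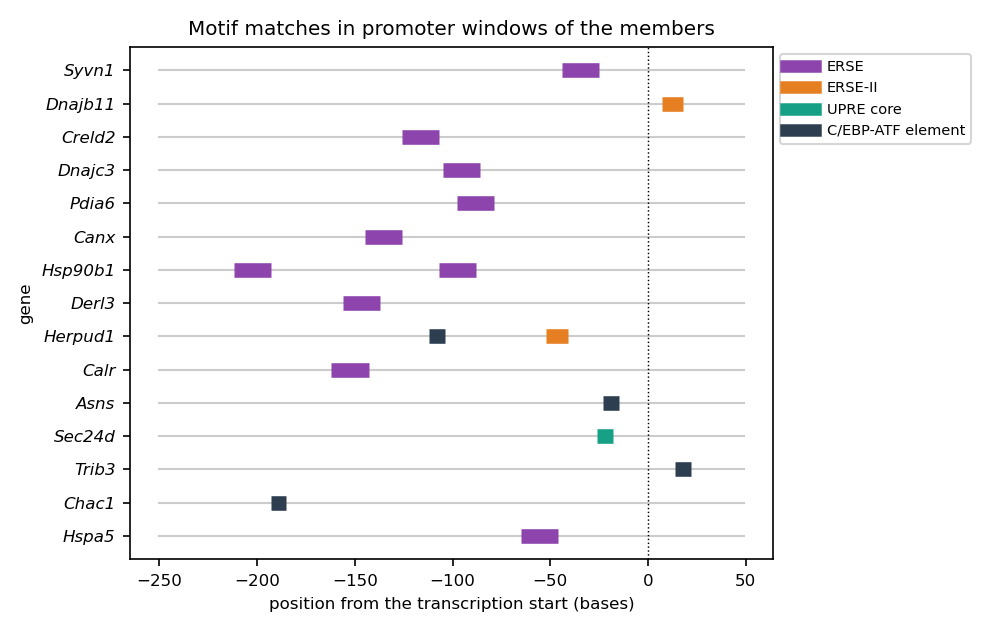
Positions of the 4 motifs in the promoter windows of the 15 genes that hold at least 1 match (vertical axis: gene; horizontal axis: bases from the transcription start, which is 0; coloured blocks: matches). The 10 ERSE matches lie between 212 and 26 bases upstream of the start, and the ERSE-II of Dnajb11 and the ATF4 element of Trib3 lie downstream of it.

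Library totals ran from 22511461 to 30695994 counts, and 12899 genes passed the filter on low counts. The floxed gene Dlk1 had 0 to 2 counts in every library, so its counts did not check the labels. The AT2 gene Sftpc made up 4.52% to 5.42% of all counts. Mutant 1 stood apart, with leukocyte and T cell markers (7 genes) summing to 403 CPM (counts-per-million) against 4.62 to 21.5 CPM in the other 5 libraries, fibroblast markers (7 genes) to 216 against 3.37 to 7.14 CPM, and club and goblet markers (10 genes) to 8880 against 490.3 to 799 CPM. The sum of 10 AT2 markers was lowest in mutant 1 (129174 CPM) and highest in wild type 1 (160022 CPM), with 136961 to 146574 CPM in the other 4. Singly, wild type 1 was highest for Sftpc, Sftpa1, Sftpb, Sftpd and Etv5, but not for Abca3, Lamp3, Napsa, Slc34a2 and Lpcat1. Lamp3 stood at 5001 CPM in wild type 1 against 5733 CPM in wild type 2, and Napsa at 3429 CPM against 3653 CPM in mutant 3. Wild type 2 alone had the X-inactivation transcript Xist at 184.6 CPM, against 0 to 2.93 CPM in the others, and the Y-linked Ddx3y at 2.88 CPM, against 49.8 to 78.2 CPM. Of the 43 tested genes, wild type 2 was the highest library for 1, against 12.6% of all tested genes. It was the lowest for 1, against 13.0% of all tested genes. The part of sex in these values was not tested. The sum of 10 immediate early and heat shock genes that respond to cell handling was lowest in wild type 1, at 9231 CPM against 12229 to 14664 CPM, and wild type 1 was the lowest library for 8 of the 10.

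The 44 genes made up 0.769%, 0.859% and 0.832% of all counts in mutants 1, 2 and 3 and 0.926%, 0.830% and 0.910% in wild types 1, 2 and 3. Of the 44, 43 passed the filter. The exception was Sec61g, the smallest subunit of the translocon, with 9, 0 and 17 counts in mutants 1 to 3 and 6, 10 and 9 counts in wild types 1 to 3. Whether reads of Sec61g went to near-identical copies is not known from the sources used here, so its low count is not read as absence of the transcript.

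Levels of different genes were set side by side per kilobase of exon, using exon lengths of coding transcripts from GENCODE M21. On this scale the most abundant were P4hb, a disulfide isomerase that is also a subunit of collagen prolyl hydroxylase, at 311 CPM per kilobase as the mean of 6 libraries (282 to 350.3), Hsp90b1, the ER form of HSP90, at 297 (239 to 329), and Hspa5, the HSP70 chaperone BiP, at 242 (173 to 292). The ranges of these 3 overlapped. Atf4, Herpud1 and Calr followed at 196, 192 and 188 CPM per kilobase. At the low end stood Asns at 4.77, Derl3 at 2.38 and Chac1 at 0.585 CPM per kilobase. Chaperone genes lay at both ends of this order, since Sdf2l1 stood at 5.77 CPM per kilobase. Chac1 encodes a glutathione-degrading enzyme induced by stress, and Derl3 a degradation channel known from secretory cells.

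Mutant and wild-type libraries were compared to ask whether deleting Dlk1 in AT2 cells alters gene expression during repair. In edgeR's quasi-likelihood test, 0 of the 43 tested genes passed the 5% threshold after Benjamini-Hochberg adjustment, where 0% of all tested genes did. The lowest adjusted p among them was 0.737. DESeq2 called 0 of 44 (lowest adjusted p = 0.363, for Xbp1), against 0.3% of the genes it tested. At an unadjusted p under 0.05 in edgeR, 4 genes were lower in the mutant (Xbp1, Asns, Sil1 and Sec61b) and 0 higher, where 2.89% of all tested genes were lower and 3.69% higher.

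The signs leaned one way. Of the 43 genes, 39 had a negative log2 fold change (mutant minus wild type), against 48.9% of all tested genes, and the median was -0.14 against 0.00 over all tested genes. The fold changes ran from -0.87 for Sdf2l1 to 0.15 for Syvn1. In 6 genes (Xbp1, Trib3, Sil1, Pdia3, Derl3 and Sec61b) every mutant library was below every wild-type library, where 6.43% of all tested genes showed this, and in 0 genes was every mutant library above, where 5.23% did. In such bulk samples, fewer cells of a type and less RNA per cell cannot be told apart.

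This lean rested mainly on a single library in each group. Wild type 1 was the highest of the 6 libraries for 31 of the 43 genes, against 21.5% of all tested genes. Mutant 1 was the lowest for 25 of the 43, against 21.2% of all tested genes. As the median log2 ratio to the mean of the 6 libraries, the genes stood at -0.18 in mutant 1 and 0.19 in wild type 1, and between -0.02 and 0.00 in the other 4 libraries. Leaving out mutant 1 gave a median log2 fold change of -0.09 with 32 of 43 negative (51.9% of all tested genes), and leaving out wild type 1 gave -0.04, also with 32 of 43 negative (48.1%). Without both libraries the median was -0.02, and 24 of 43 genes were negative, against 49.6% of all tested genes. Leaving out a lowest mutant or a highest wild-type library raises a fold change by construction. These medians thus describe where the lean lay and do not test it, and fewer libraries per group remained. Among same-numbered libraries, 41 of 43 genes were lower in mutant 1 than in wild type 1, 21 of 43 lower in mutant 2 than in wild type 2, and 25 of 43 lower in mutant 3 than in wild type 3. The markers of other cell types in mutant 1, and the high AT2 and low handling-gene sums in wild type 1, moved with these values, and their part in them was not tested.

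**Figure D2:**
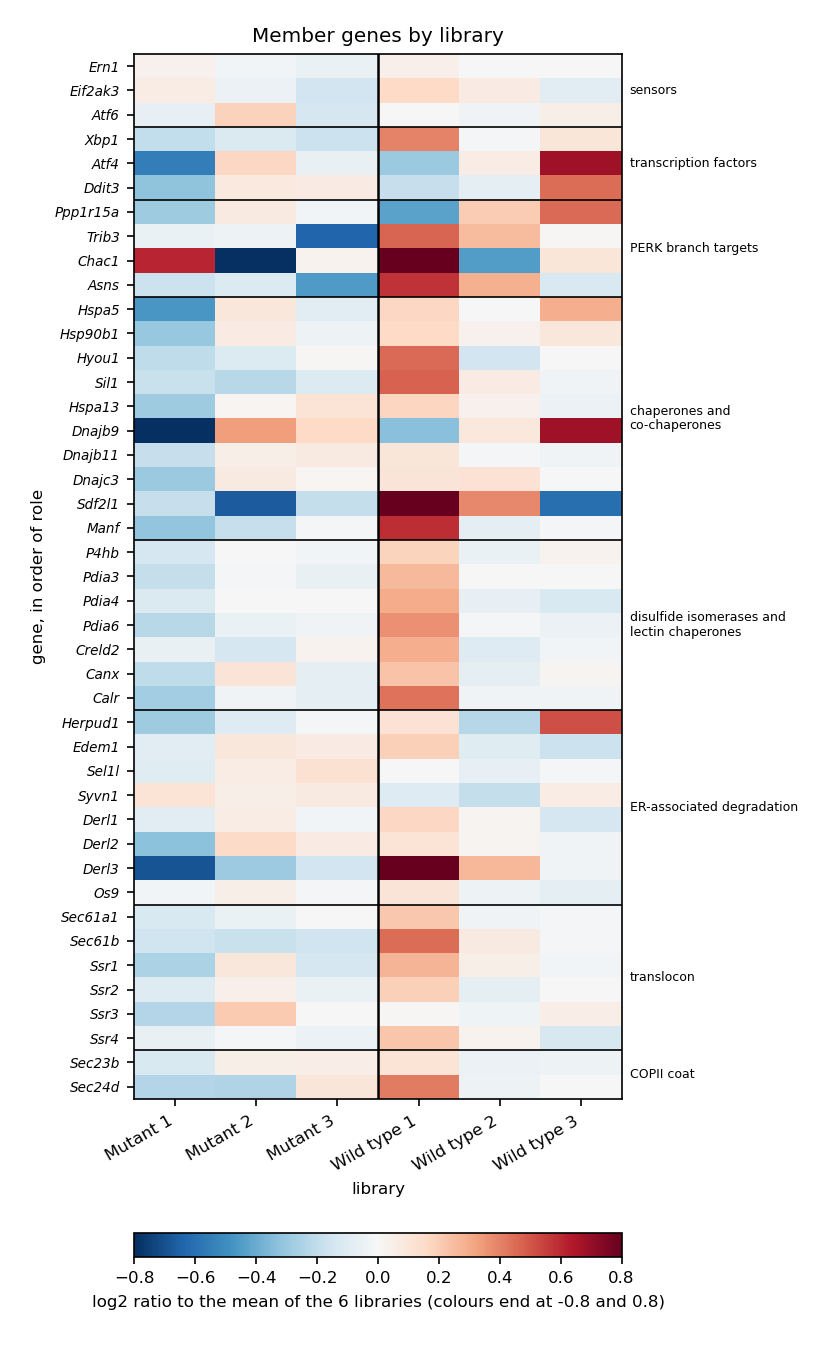
Colour gives the log2 ratio of each gene to its mean over the 6 libraries (rows: 43 tested genes by role; columns: libraries, mutant left of the line). The wild type 1 column is red for most genes and the mutant 1 column blue, while Atf4, Ddit3, Ppp1r15a and Dnajb9 are blue in both and red in wild type 3.

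Between the highest and the lowest library, the 3 sensors had ratios of 1.07 (Ern1), 1.24 (Eif2ak3) and 1.25 (Atf6). Genes outside the sensors also had small ratios, such as P4hb at 1.24 and Os9 at 1.13. Ern1, which encodes the IRE1 kinase and nuclease that splices Xbp1 mRNA, had 57.9, 55.9 and 54.5 CPM after TMM scaling in mutants 1 to 3, against 58.2, 56.6 and 56.8 CPM in wild types 1 to 3. The groups overlapped, and the log2 fold change was -0.03 with a 95% interval of -0.19 to 0.14. Eif2ak3, the gene of the PERK kinase that slows translation, stood at 66.7, 62.1 and 57.5 CPM against 71.5, 67.0 and 60.5 CPM, a log2 fold change of -0.09 (-0.32 to 0.13). Atf6, the gene of the sensor that is itself a transcription factor, stood at 103, 122 and 98.1 CPM against 107, 106 and 111 CPM, a log2 fold change of -0.01 (-0.23 to 0.22). The intervals of these 3 genes left room for log2 changes of at most 0.32 in size.

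Xbp1, the factor made by IRE1-dependent splicing and a driver of secretory capacity, was the member with the smallest p. It stood at 148, 156 and 150.4 CPM in mutants 1, 2 and 3 and at 223, 168 and 181 CPM in wild types 1, 2 and 3. The groups did not overlap, wild type 1 was the highest, and the 3 mutant libraries lay close together. The log2 fold change was -0.33 ± 0.11 (SE) with an edgeR adjusted p of 0.737. Without wild type 1 it was -0.21, and without both wild type 1 and mutant 1 it was -0.18. Counts per gene symbol do not separate spliced from unspliced Xbp1, so IRE1 activity was not measured.

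Atf4 and Ddit3 followed another order of libraries. Atf4, the factor whose translation PERK favours, stood at 221, 366 and 313 CPM in the mutant and 265, 339 and 521 CPM in the wild-type libraries. Ddit3, the gene of the factor CHOP that promotes death under lasting stress, stood at 13.3, 17.5 and 17.4 CPM against 14.6, 15.7 and 22.7 CPM. In both genes wild type 3 was highest and mutant 1 and wild type 1 were the lowest pair, and the groups overlapped. Their log2 fold changes were -0.32 ± 0.28 and -0.14 ± 0.20. Without wild type 3 these were -0.01 for Atf4 and 0.08 for Ddit3. ATF4 is known to be controlled at translation, which these counts do not show.

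**Figure D3:**
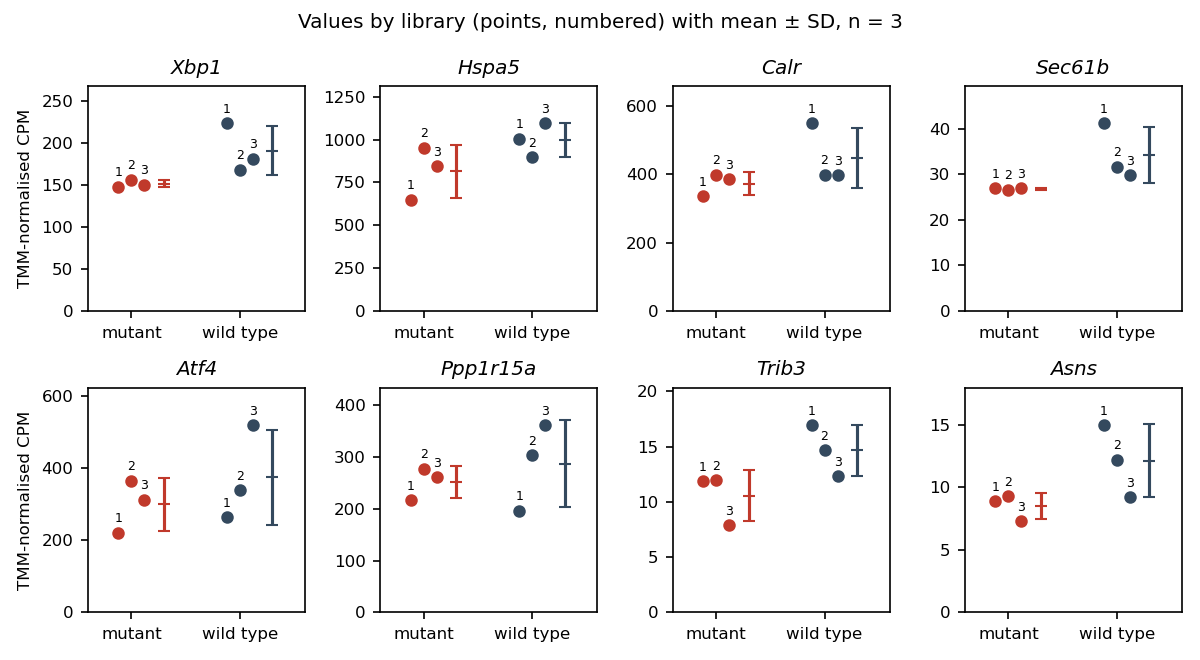
TMM-normalised CPM of 8 genes in each library (points, numbered by replicate; bars: mean ± SD, n = 3 per group; vertical axes start at 0). Xbp1, Sec61b and Trib3 show no overlap of the groups, and Atf4 and Ppp1r15a are highest in wild type 3.

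The genes downstream of PERK and ATF4 had the lowest median of the 8 role groups, at -0.49 over 4 genes, all negative. Asns, which makes asparagine, stood at 8.90, 9.28 and 7.30 CPM in the mutant and 15.0, 12.2 and 9.20 CPM in the wild-type libraries. Mutant 2 lay just above wild type 3, so the groups overlapped, and the log2 fold change was -0.51 ± 0.21 (edgeR adjusted p = 0.737). Trib3, a pseudokinase that restrains the ATF4 and CHOP response, stood at 11.9, 11.9 and 7.90 CPM against 17.0, 14.7 and 12.3 CPM, with no overlap and a log2 fold change of -0.47 ± 0.21 (adjusted p = 0.737). Ppp1r15a, the GADD34 subunit that reverses the PERK block on translation, stood at 217, 277 and 260.2 CPM against 196, 303 and 361 CPM. It had its lowest value in wild type 1, where Asns and Trib3 had their highest. Chac1 stood at 1.25, 0.214 and 0.811 CPM against 2.06, 0.561 and 0.855 CPM, too low for a usable fold change (95% interval of -2.37 to 1.19). Without mutant 1 and wild type 1 the log2 fold change was -0.37 for Asns, -0.44 for Trib3 and -0.30 for Ppp1r15a, each with an edgeR adjusted p of 0.921. Leaving out 1 library took Asns to -0.34 (without wild type 1) and Trib3 to -0.30 (without mutant 3). That of Ppp1r15a was 0.0057 without wild type 3, and that of Chac1 0.11 without wild type 1.

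Among the chaperone genes, Dnajb9 also had mutant 1 and wild type 1 as its lowest pair and wild type 3 as its highest library. Dnajb9, a J-domain protein that holds IRE1 inactive, stood at 66.1, 158 and 139 CPM in the mutant and 99.0, 133 and 200.1 CPM in the wild-type libraries. Its log2 fold change was -0.25, and turned to 0.045 without mutant 1 and 0.059 without wild type 3. Herpud1, which organises the degradation complex, stood at 301, 342 and 363 CPM against 398, 314 and 526 CPM, highest in wild type 3 but with wild type 1 in the second place (-0.30, or -0.09 without wild type 3). Counting genes for which mutant 1 and wild type 1 were the lowest pair gave Atf4, Ddit3, Ppp1r15a and Dnajb9, 4 of 43, against 11.6% of all tested genes. Wild type 3 was highest for these 4 and for Herpud1 and Hspa5, 6 of 43, against 14% of all tested genes. Neither share stood above the background. Atf3, a stress-induced factor outside the 44 genes, stood at 706, 1427 and 1333 CPM against 819, 1509 and 1406 CPM, also with mutant 1 and wild type 1 lowest. Cebpb, likewise outside the 44 genes, had mutant 1 and wild type 1 as its highest pair. It stood at 38.8, 27.4 and 33.3 CPM against 41.3, 31.9 and 31.7 CPM.

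All 10 chaperones and co-chaperones had negative log2 fold changes, with a median of -0.24 and a range of -0.87 to -0.04. Hspa5 stood at 648, 953 and 845 CPM in the mutant and 1005, 899 and 1094 CPM in the wild-type libraries. Mutant 2 lay above wild type 2, and mutant 1 was the lowest. The log2 fold change of Hspa5 was -0.29 ± 0.16 (-0.66 to 0.08), and without mutant 1 it was -0.15. Hsp90b1 stood at 676, 871 and 809 CPM against 931, 853 and 886 CPM, a log2 fold change of -0.18 ± 0.12, or -0.08 without mutant 1. It was lowest in mutant 1 and highest in wild type 1.

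Sil1, the exchange factor that releases ADP from BiP, was the only chaperone gene whose groups did not overlap. It stood at 41.6, 40.4 and 43.5 CPM in the mutant and 65.4, 49.1 and 46.2 CPM in the wild-type libraries. The log2 fold change was -0.36 ± 0.14 (edgeR adjusted p = 0.737), or -0.19 without wild type 1. Manf, a secreted ER stress factor that binds BiP, stood at 49.7, 54.3 and 61.3 CPM against 93.2, 58.4 and 61.4 CPM. Its log2 fold change was -0.37 ± 0.19 with all libraries and -0.12 without wild type 1. Sdf2l1, a partner of the J-domain protein Dnajb11, stood at 3.55 to 5.0 CPM in the mutant libraries against 13.7, 7.45 and 3.71 CPM, with wild type 3 among the low libraries. Its log2 fold change of -0.87 was -0.31 without wild type 1. The large HSP70-type chaperone gene Hyou1 also stood high in wild type 1, at 199.6 CPM against 127 to 146 CPM in the other 5 libraries, and its log2 fold change without wild type 1 was -0.02. With Hspa13, Dnajb11 and Dnajc3, which are further chaperones and J-domain partners of BiP, Hyou1 ranged from -0.22 to -0.04 in log2 fold change. Without both end libraries, the median of the 10 genes was -0.05 with 7 negative.

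The 7 disulfide isomerases and lectin chaperones were all negative and all highest in wild type 1, with a median of -0.12 and a narrow range of -0.27 to -0.09. Calr, the lectin chaperone calreticulin that also stores calcium, stood at 335, 399 and 385 CPM in the mutant and 549, 399 and 397 CPM in the wild-type libraries. Wild types 2 and 3 were at the level of mutant 2, and only wild type 1 stood above, giving a log2 fold change of -0.27 ± 0.15 with all libraries and -0.09 without wild type 1. Pdia3, the isomerase that works with Calr and Canx on glycoproteins, stood at 421, 475 and 462 CPM against 576, 482 and 481 CPM. Its groups did not overlap, but mutant 2 and wild type 3 were 475 and 481 CPM, and the log2 fold change was -0.18 ± 0.11 (adjusted p = 0.746), or -0.09 without wild type 1. The isomerases P4hb, Pdia4 and Pdia6, the isomerase-like Creld2 and the membrane lectin Canx ranged from -0.21 to -0.09. Without both end libraries, the median of the 7 genes was 0.01 with 3 negative.

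Degradation genes were divided, with 4 of 8 negative and a median of -0.01. Syvn1, the HRD1 ubiquitin ligase at the core of the degradation complex, had the highest log2 fold change of all 43 genes, 0.15 ± 0.09 (-0.05 to 0.36). It stood at 60.7, 58.1 and 59.0 CPM in the mutant and 52.3, 49.2 and 58.6 CPM in the wild-type libraries. Mutant 2 lay just below wild type 3, so the groups overlapped. Sel1l, its partner subunit, and Edem1, a mannosidase-like protein that marks glycoproteins for disposal, had log2 fold changes of 0.06 ± 0.09 and 0.04 ± 0.11, and Os9, a lectin of the same complex, 0.01 ± 0.08. Derl3 stood apart from this group at 1.80, 2.40 and 2.64 CPM against 5.58, 3.56 and 2.89 CPM, with no overlap and, for a gene so low, a log2 fold change of -0.81 ± 0.36 (adjusted p = 0.737). Without wild type 1 it was -0.50, and without both end libraries -0.35. Its paralogs Derl1 and Derl2 had -0.04 and -0.06. Derl3 and Creld2 are also abundant in plasma cells. The sum of 10 plasma and B cell markers was highest in mutant 1 (1217 CPM, other libraries 1032 to 1084 CPM), as were 8 of the 10 markers singly. Their part in these values was not tested.

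All 6 tested translocon genes were negative, with a median of -0.10. Sec61b, the beta subunit of the channel, stood at 27.01, 26.6 and 26.98 CPM in the mutant and 41.2, 31.6 and 29.8 CPM in the wild-type libraries. The groups did not overlap and the log2 fold change was -0.35 ± 0.13 (edgeR adjusted p = 0.737), or -0.19 without wild type 1. The channel-forming Sec61a1 stood at 216, 226 and 236 CPM against 273, 231 and 232 CPM, with mutant 3 above wild types 2 and 3 and a log2 fold change of -0.12 ± 0.09. Ssr1, a subunit of the translocon-associated TRAP complex, stood at 167, 212 and 182 CPM against 241, 206 and 197 CPM (-0.20 ± 0.12, or -0.11 without wild type 1). The other 3 TRAP subunits, Ssr2, Ssr3 and Ssr4, ranged from -0.09 to -0.01. Without both end libraries, 2 of the 6 were negative.

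The 2 genes of the COPII coat differed in the spread of their values. Sec24d, a cargo-binding subunit, stood at 46.6, 46.5 and 58.7 CPM in the mutant and 73.1, 53.3 and 54.7 CPM in the wild-type libraries (-0.25 ± 0.15, or -0.09 without wild type 1). Sec23b stood at 73.4, 82.7 and 82.9 CPM against 86.4, 77.5 and 77.9 CPM (-0.02 ± 0.08). Both overlapped between the groups, and both were highest in wild type 1.

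**Figure D4:**
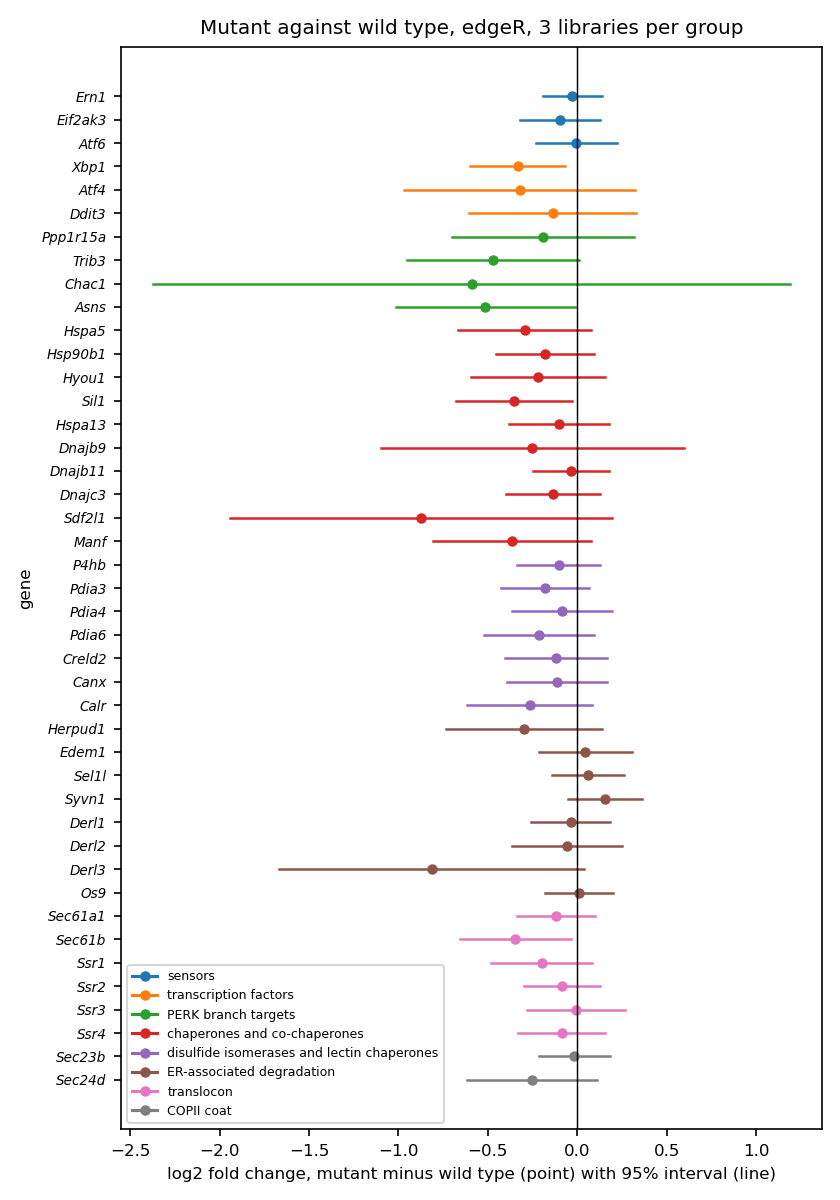
Log2 fold changes of the 43 tested genes (points) with 95% intervals from edgeR (lines), mutant minus wild type, coloured by role. Only Xbp1, Asns, Sil1 and Sec61b have intervals below 0 before adjustment, and 4 degradation genes have points above 0.

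Presence of the ERSE was set beside the values. The 9 genes with the element had a median log2 fold change of -0.18, with 8 negative, and stood at a median log2 ratio of -0.28 in mutant 1 and 0.23 in wild type 1. The 24 genes with a window but no ERSE or ERSE-II had a median of -0.16, with 21 negative, and stood at -0.16 in mutant 1 and 0.18 in wild type 1. The ERSE holders ran from Derl3 at -0.81 to Syvn1 at 0.15. The 4 genes with the ATF4 element had a median of -0.49 and stood at 0.52 in wild type 1 and -0.11 in mutant 1.

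**Figure D5:**
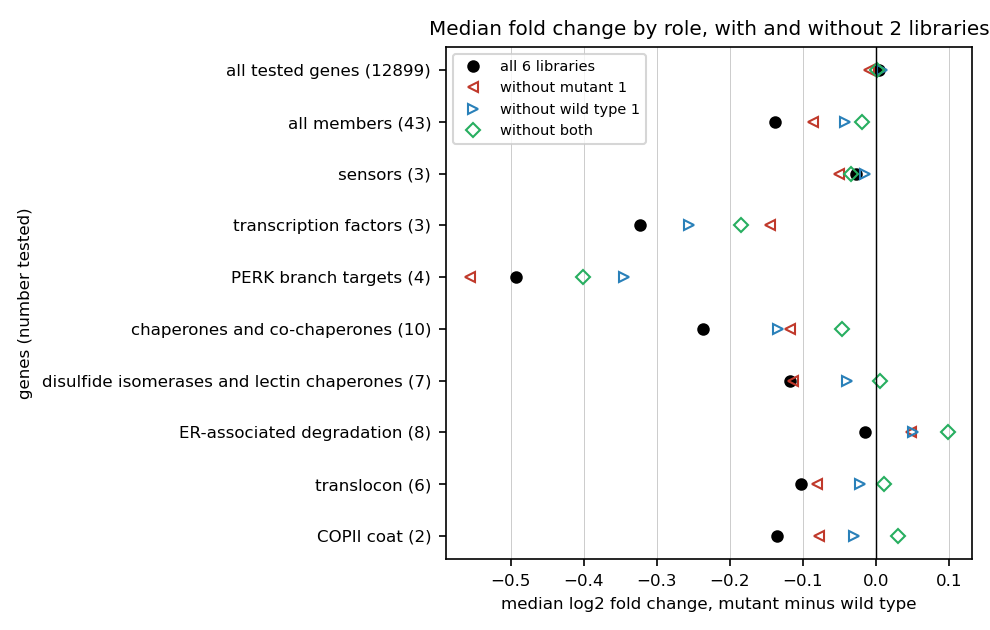
Median log2 fold change of each role group (vertical axis, number of tested genes in brackets) with all 6 libraries and without mutant 1, wild type 1 or both. Without both libraries all groups lie between -0.05 and 0.10, except the transcription factors at -0.18 and the PERK branch targets at -0.40.

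Other genes of the pathway were taken from 6 lists, 125 genes of which 123 were tested. In edgeR 0 of the 123 passed an adjusted p of 5%, and 6 were lower and 1 higher at an unadjusted p under 0.05, where 2.89% of all tested genes were lower and 3.69% higher. DESeq2 called 1 of 125, Creb3l1, where it called 0.3% of the genes it tested. Of the 123, 90 were negative with a median log2 fold change of -0.07, and without mutant 1 and wild type 1 they were divided 69 of 123 with a median of -0.01. Wild type 1 was highest for 59 of the 123 (21.5% of all tested genes) and mutant 1 lowest for 54 (21.2%). Folding and redox genes had 22 of 26 negative (median -0.06), and ER to Golgi transport genes 15 of 19 (-0.12). Targeting, translocation and N-glycosylation genes had 21 of 28 negative (-0.08), degradation genes 15 of 22 (-0.07) and stress signalling genes 9 of 17 (-0.04). A list of ATF4 targets had 8 of 11 negative (-0.08). It held genes of amino acid synthesis and transport, folate enzymes and Vldlr.

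Among the stress signalling genes, Creb3l1 had the smallest p of all genes examined here. It encodes OASIS, an ER-anchored factor that is cleaved like ATF6 and is known to drive secretory genes. It stood at 43.7, 45.0 and 46.5 CPM in mutants 1, 2 and 3 and at 81.3, 70.5 and 58.9 CPM in wild types 1, 2 and 3. The groups did not overlap, the mutant libraries lay close together, and the log2 fold change was -0.64 ± 0.12 (edgeR adjusted p = 0.737). DESeq2 called Creb3l1 with all libraries (adjusted p = 0.0104) and without wild type 1 (0.0429), but not without mutant 1 (0.0868). In edgeR the log2 fold change was -0.62 without mutant 1, -0.52 without wild type 1 and -0.50 without both. Nupr1, a stress-induced chromatin protein, stood at 99.6, 93.7 and 92.0 CPM against 199, 127 and 105 CPM, a log2 fold change of -0.59 ± 0.22, or -0.29 without wild type 1.

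In the other lists, the 2 genes of smallest p were given by the same measure. The ubiquitin ligase gene Rnf139 had a log2 fold change of 0.35 ± 0.11, at 38.8, 49.4 and 43.8 CPM against 33.6, 36.2 and 33.4 CPM, every mutant library being above every wild-type library. Ubxn4, an adaptor of the degradation ATPase, had -0.24 ± 0.09. The vesicle GTPase gene Sar1a had -0.24 ± 0.08, the SNARE gene Sec22b -0.25 ± 0.10 and the translocating chain protein gene Tram1 -0.30 ± 0.11, each without overlap of the groups. Ubxn4 and Fkbp2 did not overlap either. Of the 123 tested genes of all 6 lists, 15 had every mutant library below every wild-type library, against 6.43% of all tested genes. In 2 of the 123 every mutant library was above, against 5.23%. Krtcap2, an oligosaccharyltransferase subunit, had -0.28 ± 0.12, the prolyl isomerases Fkbp2 and Fkbp14 -0.29 ± 0.13 and -0.29 ± 0.17, Aldh1l2 of folate metabolism -0.69 ± 0.41 and the lipoprotein receptor gene Vldlr -0.12 ± 0.12. Without wild type 1 these were -0.19 for Tram1, -0.18 for Krtcap2, -0.18 for Fkbp2, -0.37 for Aldh1l2 and 0.01 for Vldlr. Without mutant 1, Ubxn4 was at -0.15 and Fkbp14 at -0.17.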

How the data were processed

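Counts were from polyadenylated RNA libraries of 3 mutant and 3 wild-type samples, grouped by sample title. The authors deposited raw gene counts, 1 file per library, in whole numbers and without normalization. Per the submitters' processing notes, the genome build was mm9 and the tools included CASAVA and DESeq2. The aligner, counting program, annotation and strand handling are not stated in those notes or the labels, so overlapping genes and near-identical copies can share reads. The sequencer is a NextSeq500 in one label and a HiSeq4000 in another.

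Genes were filtered with filterByExpr, scaled by TMM and tested with edgeR 4.0.16 (quasi-likelihood, two-sided, Benjamini-Hochberg over 12899 genes, R 4.3.3). Standard errors and intervals came from this fit. Gene values are CPM after TMM scaling, and marker sums are CPM of the library total. Log2 ratios used a prior count of 2. In totals of 22511461 to 30695994 counts, a count of 0 allows up to 3 counts, or 0.0977 to 0.133 CPM, for counting error only. No replicate pair agreed within sampling noise (chi-square per degree of freedom 18.4 to 76.7). Same-numbered libraries deviated together (correlations of 0.31, 0.21 and 0.17), a possible pairing seen in the data alone. The main fit was unpaired, and the pairing entered only as a replicate block among the alternatives. The 43 tested genes of the list went opposite ways in the libraries numbered 1, at median log2 ratios of -0.18 in mutant 1 and 0.19 in wild type 1. Alternatives were other scalings, filters and tools (DESeq2 1.42.0, limma 3.58.1), the replicate block and left-out libraries. The procedure was tested on simulated counts.

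The genes, lists and tests were chosen with earlier results of these data known. The text names the sensors, the transcription factors, Hspa5, Hsp90b1, Asns, Herpud1 and Sec61a1, and per list the 2 genes of smallest p. Other names were chosen after their values were seen. Of the 125 pathway genes, 7 matched through an older symbol, as did 4 of 104 markers, and 1 marker was not matched. Ciliated, endothelial, mesothelial, erythroid, AT1, macrophage and neutrophil, plasma and B cell, and proliferation markers were also summed. Promoter windows came from RefSeq on GRCm38.p6 and were matched by symbol. Counts were never read by coordinates.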

Additional observations from a re-analysis of the deposited data

How the results depend on the processing

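No alternative called any of the 44 genes. Over all genes, edgeR called 0 with all 6 libraries and from 0 to 1 when a single library was left out (1 without wild type 3). It called 3 without mutant 1 and wild type 1 together, and 0 with the replicate block, which changed no call. DESeq2 called 46, or 22 without mutant 1 and 40 without wild type 1, settings chosen after the data were seen. The median log2 fold change of the tested genes was -0.138, ran from -0.204 to -0.042 when a single library was left out, and was -0.142 with the replicate block and -0.019 without mutant 1 and wild type 1. It stayed negative under every alternative run.

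Of 55 genes, the 43 tested and 12 other pathway genes, 22 changed sign under some alternative. With single libraries left out, log2 fold changes ran from -0.11 to 0.058 for Atf6, -0.26 to 0.079 for Ddit3, -0.048 to 0.040 for Sec23b, -0.40 to 0.0057 for Ppp1r15a, -1.14 to 0.11 for Chac1, -0.18 to 0.0058 for Hspa13, -0.49 to 0.059 for Dnajb9, -0.083 to 0.042 for Dnajb11, -0.17 to 0.055 for Pdia4, -0.20 to 0.0086 for Creld2, -0.029 to 0.16 for Edem1, -0.11 to 0.038 for Derl1, -0.16 to 0.075 for Derl2, -0.030 to 0.063 for Os9, -0.12 to 0.10 for Ssr3, -0.17 to 0.0074 for Ssr4 and -0.20 to 0.012 for Vldlr. Without mutant 1 and wild type 1 together they were 0.027 for Atf6, 0.00037 for Sec61a1, 0.096 for Sec23b, 0.032 for Hyou1, 0.068 for Hspa13, 0.085 for Dnajb11, 0.0062 for P4hb, 0.097 for Pdia4, 0.016 for Creld2, 0.052 for Canx, 0.077 for Derl1, 0.12 for Derl2, 0.030 for Ssr2, 0.11 for Ssr3, 0.023 for Ssr4 and 0.060 for Vldlr. DESeq2 without mutant 1 gave 0.032 for Atf6, 0.044 for Sec23b, 0.0096 for Hspa13, 0.049 for Dnajb9, 0.046 for Dnajb11, 0.00047 for Derl1, 0.079 for Derl2 and 0.11 for Ssr3. DESeq2 without wild type 1 gave 0.033 for Sec23b, 0.10 for Chac1, 0.00045 for Dnajb11, 0.052 for Pdia4, 0.0063 for Creld2, 0.036 for Derl1, 0.0050 for Ssr4 and 0.0094 for Vldlr. In limma-voom the values were 0.041 for Sec23b, 0.028 for Dnajb11, 0.0028 for Derl2 and 0.025 for Ssr3. Upper-quartile factors gave 0.0015 for Atf6. A filter of 1 CPM in 3 libraries gave 0.00080 for Atf6. No filter gave -0.0017 for Os9. The cause was not tested. Of the alternative values of role groups and of these genes, 998 kept direction and call (genes) or moved by less than the spread between libraries (role-group medians). Among values of single genes, 64 changed sign and 2 gained a call (both Creb3l1 in DESeq2). Among role-group medians, 6 moved by more than that spread. Sign changes of role-group medians are not in the 64. The median of the degradation genes was -0.015 with all libraries and 0.049 without mutant 1. Depth limits Chac1 most, with 5 to 45 counts per library, against 56 to 122 for Derl3 and 83 to 299 for Sdf2l1.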
